A study of Mus musculus with 12 samples.

Results

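The Yap/Taz-Tead genes followed here were 10 genes of mouse neural progenitor cells (NPCs): 7 targets (Ccn1, Ccn2, Ankrd1, Thbs1, Amotl2, Lats2 and Axl) and 3 regulators (Yap1, Wwtr1 and Tead1). They were listed by name and were read by 13 of the 55681 probes on the array. In all, 21154 genes had a probe with a symbol. NPCs were differentiated in culture and grown in medium with EGF and bFGF at 10 ng/ml. In 1 experiment they received a retrovirus carrying EGFP (the control), Mkl1 or Srf. In the other, the retrovirus expressed shEGFP, the control hairpin, or shActb_1 or shActb_2, which target the β-actin gene Actb. Each of the 6 groups had 2 Agilent 1-colour arrays, and infected cells were selected with puromycin. The study's methods give NSEB5-2C or N31 as the NPC line of molecular analyses. NSEB5-2C came from an embryonic stem cell line with a blasticidin resistance gene at Oct4, and N31 from iPSCs made from NSEB5-2C cells, so that it also carries doxycycline-inducible reprogramming factors, and the sources used here do not say which line gave which array. Duplicate arrays of the knockdown are technical according to the study, and nothing says that the other duplicates came from separate cultures. The p-values therefore measure array-to-array error alone, and the number of arrays limits the precision.

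Yap1 and Taz (the product of Wwtr1) are transcriptional coactivators that bind no DNA themselves and reach their target genes through Tead factors, of which Tead1 is one. The Hippo kinases Lats1 and Lats2 phosphorylate both coactivators and hold them in the cytoplasm, and Lats2 and Amotl2 are themselves targets whose products restrain Yap. Mkl1 is a coactivator of the transcription factor Srf. Monomeric actin holds Mkl1 outside the nucleus, so that Mkl-Srf activity follows the state of the actin cytoskeleton, as Yap activity does. Ccn1, Ccn2, Ankrd1 and Thbs1 are known targets of both routes, and the question was whether these 4 genes behaved as a group in cells given Srf, Mkl1 or an Actb hairpin.

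Levels are log2 processed signals relative to the 75th percentile of the array, and a change is a difference of group means on that scale. A gene was said to rise or fall when the Benjamini-Hochberg adjusted p over all probes tested (limma) was under 0.05 and the change exceeded 2-fold. For all other values the change, its standard error (SE) and adjusted p are given without such a verb. Each array had 33008 to 40359 probes well above background, duplicate arrays correlated at r = 0.993 to 0.998, and all 13 member probes were well above background on all 12 arrays. The EGFP duplicates stood farthest apart in signal, with 2.74% of probes differing by over 2-fold against 0.499% to 1.54% in the other groups. In the number of probes well above background the shActb_2 duplicates stood farthest apart, at 40359 and 33008. Of 10 neural progenitor markers, 9 were well above background on both arrays of every group, the exception being Olig2. So were at least 6 of 7 mesenchymal markers, and the study states that NPCs express mesenchymal genes. The Actb probe was lower with shActb_1 (log2 change -0.53, SE 0.05, adjusted p = 0.00128 by limma) and with shActb_2 (log2 change -0.65, SE 0.05, adjusted p = 0.000197). The 2 Srf probes were higher with Mkl1 (0.71 and 1.18), shActb_1 (0.90 and 0.595) and shActb_2 (0.97 and 0.75), all at adjusted p under 0.05 (limma). In the Srf group they went against the label, at -2.46 and -1.40 relative to EGFP, so its arrays are called the arrays labelled Srf. Among known Srf targets, the smooth muscle genes Actg2 (24.3-fold), Acta2 (10.4-fold) and Tagln (5.08-fold) rose on the arrays labelled Srf. Of the 14 genes tested from the list of cytoskeletal targets described below, 8 were higher there and 6 lower. The 2 probes of Mkl1 (named Mrtfa in the annotation) had changes of 0.20 and 0.17 on the arrays labelled Mkl1, and neither passed the test. The vectors carried coding sequences, and whether these probes lie within them was not tested. The Srf and Mkl1 comparisons share the EGFP arrays, and both hairpin comparisons share the shEGFP arrays. The shActb_2 arrays were on a slide of their own, so hairpin and slide cannot be told apart for that group.

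Of the 4 targets shared by both routes, Ankrd1 was higher in every comparison, Ccn2 rose on the arrays labelled Srf and was slightly lower with both Actb hairpins, Ccn1 had changes of 0.37 to 0.67 that did not pass the p threshold with Mkl1, and Thbs1 had small changes of either sign. They are described in turn. Ankrd1 (NM_013468) encodes an ankyrin repeat protein of the nucleus and sarcomere that is induced by mechanical load in muscle. Its log2 level was 0.20 and 0.44 on the EGFP arrays, 2.48 and 2.52 on the Mkl1 arrays and 1.48 and 1.55 on the arrays labelled Srf. In the knockdown experiment it was 0.46 and 0.63 with shEGFP, 2.16 and 2.22 with shActb_1 and 2.33 and 2.35 with shActb_2. Every array of the 4 altered groups lay above every control array, and the Mkl1 arrays were the highest of all. Ankrd1 rose 4.53-fold with Mkl1 (log2 change 2.18, SE 0.09, adjusted p = 3.14e-05, limma). It rose 2.29-fold on the arrays labelled Srf (log2 change 1.19, SE 0.09, adjusted p = 0.000154). Set against the Mkl1 arrays, the arrays labelled Srf were lower (log2 change -0.99, 95% interval -1.21 to -0.77, adjusted p = 0.000308), just under 2-fold. With the hairpins it rose 3.13-fold (shActb_1, log2 change 1.64, adjusted p = 0.000147) and 3.47-fold (shActb_2, log2 change 1.80, adjusted p = 5.01e-05). The 2 hairpins differed by 0.15 (95% interval -0.07 to 0.37), and the Mkl1 change minus the shActb_1 change was 0.54 (95% interval 0.22 to 0.85, adjusted p = 0.122), so neither difference passed the test.

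Ccn2 (NM_010217), also known as Ctgf, encodes a secreted matricellular protein and is among the most used readouts of Yap activity. Its log2 level was 2.16 and 2.21 on the EGFP arrays, 2.14 and 2.08 on the Mkl1 arrays and 3.49 and 3.45 on the arrays labelled Srf. It was 2.16 and 2.37 with shEGFP, 1.81 and 1.85 with shActb_1 and 2.04 and 1.95 with shActb_2. The arrays labelled Srf stood alone above the other 10, and the arrays of both hairpins lay below their control. Ccn2 rose 2.44-fold on the arrays labelled Srf (log2 change 1.28, SE 0.08, 95% interval 1.1 to 1.47, adjusted p = 5.43e-05, limma). With Mkl1 the change was -0.08 (95% interval -0.26 to 0.11, adjusted p = 0.521), and the arrays labelled Srf exceeded the Mkl1 arrays by 1.36 (SE 0.08, adjusted p = 3.32e-05). With the hairpins the changes were -0.43 (SE 0.08, adjusted p = 0.0158) and -0.27 (SE 0.08, adjusted p = 0.0287), both past the p threshold and under 2-fold. Without shEGFP replicate 2 the shActb_2 change of Ccn2 was -0.17 (adjusted p = 0.155). Ccn2 and Ankrd1 thus rose together on the arrays labelled Srf, whereas with Mkl1 and the Actb hairpins Ankrd1 rose without Ccn2.

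Ccn1 (NM_010516), or Cyr61, encodes a second matricellular protein of the same family as Ccn2. Its log2 level was 3.06 and 3.41 on the EGFP arrays, 3.62 and 3.59 with Mkl1 and 3.61 and 3.71 on the arrays labelled Srf. It was 3.41 and 3.47 with shEGFP, 4.16 and 4.06 with shActb_1 and 3.83 and 3.88 with shActb_2. Each altered group lay above its control with no overlap, although the EGFP arrays themselves differed by nearly as much as the changes they were compared with. The changes were 0.42 with the label Srf (SE 0.11, adjusted p = 0.028), 0.37 with Mkl1 (SE 0.11, adjusted p = 0.054), 0.67 with shActb_1 (SE 0.11, adjusted p = 0.0106) and 0.41 with shActb_2 (SE 0.11, adjusted p = 0.0207, limma). None reached 2-fold. Without EGFP replicate 1 the change of Ccn1 with the label Srf was 0.25 (adjusted p = 0.0624), and with quantile normalization that with shActb_2 was 0.25 (adjusted p = 0.118). Unlike for Ccn2, the arrays labelled Srf and the Mkl1 arrays did not differ detectably in Ccn1 (difference 0.06, 95% interval -0.20 to 0.32).

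Thbs1 (NM_011580) encodes thrombospondin 1, a secreted glycoprotein that activates latent TGF-β. Its log2 level was 3.53 and 3.43 with EGFP, 3.54 and 3.29 with Mkl1 and 3.26 and 3.06 on the arrays labelled Srf. It was 3.80 and 3.86 with shEGFP, 4.10 and 4.09 with shActb_1 and 3.46 and 3.40 with shActb_2. The hairpins lay on opposite sides of their control. The changes were 0.27 with shActb_1 (adjusted p = 0.166) and -0.40 with shActb_2 (adjusted p = 0.0162), and the difference between the hairpins was -0.67 (SE 0.10, adjusted p = 0.00302, limma). On the arrays labelled Srf the change was -0.32 (adjusted p = 0.0523) and with Mkl1 -0.07 (adjusted p = 0.67). No change of Thbs1 reached 2-fold.

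**Figure D1:**
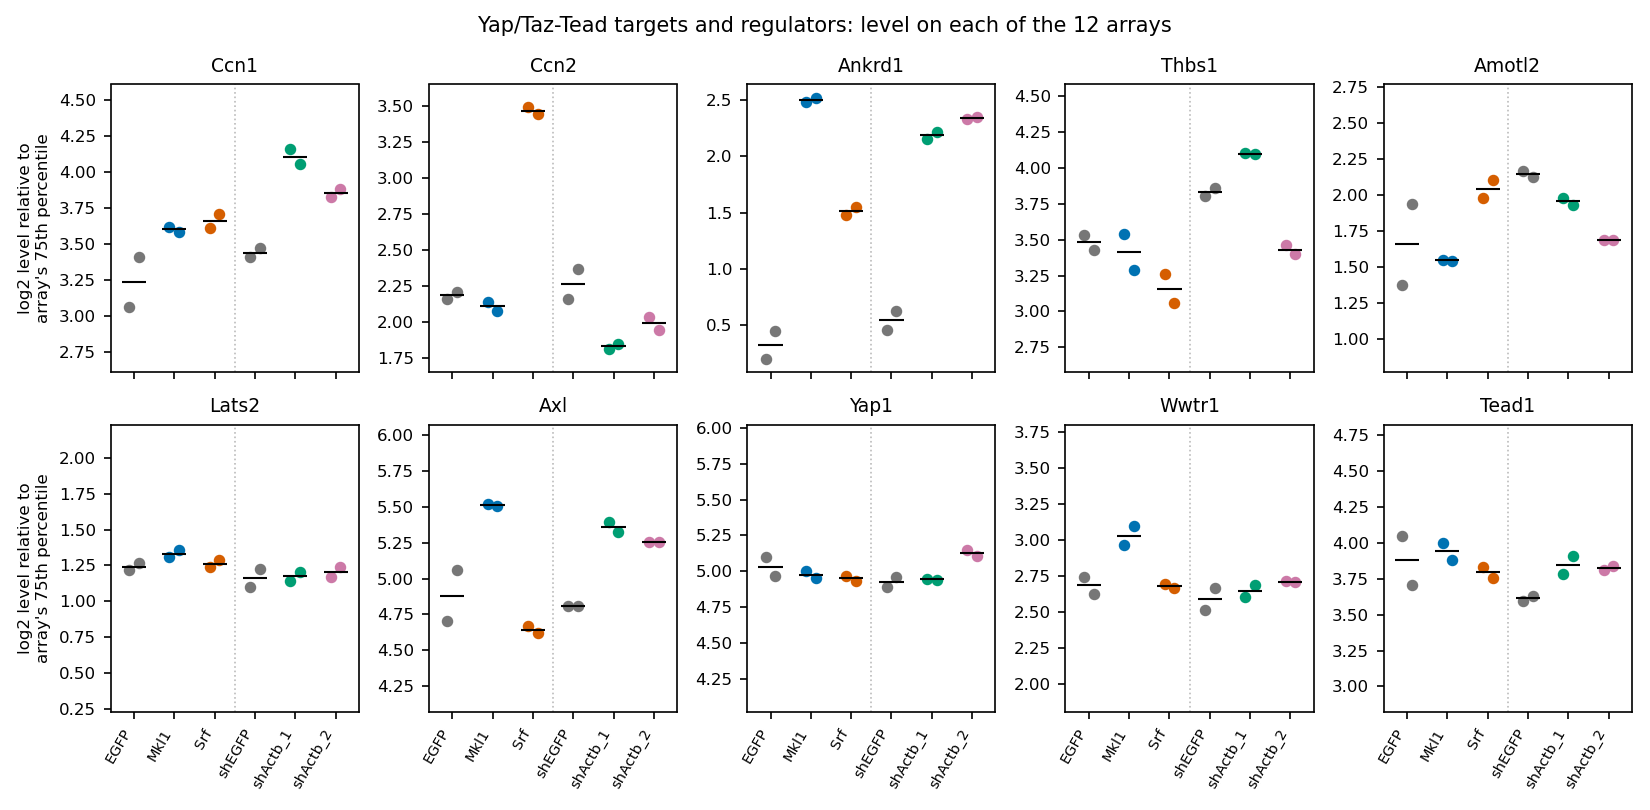
Level of the 10 genes on each array, as log2 signal relative to the array's 75th percentile (vertical axis, at least 2 units tall in each panel), for the 6 groups on the horizontal axis. Points are arrays, bars are group means, the dotted line parts the overexpression from the knockdown experiment, and for Lats2 and Tead1 the brightest probe is shown. In the Ankrd1 panel every altered group sits above the controls, and in the Ccn2 panel the arrays labelled Srf, at 3.49 and 3.45, stand alone.

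Of the shared targets, only Ankrd1 and Ccn1 had a promoter window to search, and both are shown. No window was available for Ccn2, Thbs1 or Tead1, so their promoters were not searched. The windows of Axl and Amotl2, described next, are shown as those of further Yap targets. Of these, Axl passed the p threshold with Mkl1 and Amotl2 did not. Each window is the 250 bases before the annotated start in RefSeq (GRCm38.p6), read 5′ to 3′ on the strand of the gene, with capitals marking GGAATG or its reverse complement CATTCC, the core letters bound by Tead factors. Ankrd1 lies on the minus strand at chr19:36119845-36120094, Ccn1 on the minus strand at chr3:145649986-145650235, Axl on the minus strand at chr7:25788734-25788983 and Amotl2 on the plus strand at chr9:102717554-102717803.
Ankrd1: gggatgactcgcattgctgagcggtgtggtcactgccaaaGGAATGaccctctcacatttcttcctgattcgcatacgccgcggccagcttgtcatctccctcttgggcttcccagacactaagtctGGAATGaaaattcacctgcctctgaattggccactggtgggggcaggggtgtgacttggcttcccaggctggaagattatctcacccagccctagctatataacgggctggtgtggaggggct
Ccn1: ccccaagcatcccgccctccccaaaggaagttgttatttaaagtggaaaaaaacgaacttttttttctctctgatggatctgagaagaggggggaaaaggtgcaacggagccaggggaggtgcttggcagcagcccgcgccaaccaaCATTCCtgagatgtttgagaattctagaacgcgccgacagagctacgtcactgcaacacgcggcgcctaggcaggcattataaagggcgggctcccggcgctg
Axl: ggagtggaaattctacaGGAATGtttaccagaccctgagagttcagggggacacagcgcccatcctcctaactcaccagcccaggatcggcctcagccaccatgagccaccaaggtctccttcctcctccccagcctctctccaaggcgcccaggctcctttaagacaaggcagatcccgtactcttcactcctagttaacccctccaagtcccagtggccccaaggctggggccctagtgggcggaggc
Amotl2: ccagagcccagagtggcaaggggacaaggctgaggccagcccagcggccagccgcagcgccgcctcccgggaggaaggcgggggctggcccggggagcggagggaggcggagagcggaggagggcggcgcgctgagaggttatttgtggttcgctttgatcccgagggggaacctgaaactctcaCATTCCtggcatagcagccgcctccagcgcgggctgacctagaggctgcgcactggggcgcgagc

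The letters occurred at 2 places in the Ankrd1 window, 210 to 205 and 123 to 118 bases before the start, and at 1 place in each of the others, from base 103 before the start of Ccn1, base 233 of Axl and base 65 of Amotl2. Of the 7 members with a window, 6 held the letters and Lats2 did not. Counted over windows of alternative starts, this was 7 of 9 windows (77.8%), against 12.6% of all 32851 promoter windows of this length searched on both strands. Of these 7, 3 belong to the regulators Yap1 and Wwtr1, and the windows of Wwtr1 overlap and hold the same site. The letters were also in 6 of 15 windows (40%) of the cytoskeletal Mkl-Srf targets described below. They were in 8 of 18 (44.4%) of the further Hippo pathway genes and in 2 of 11 (18.2%) of the other reported Yap targets. The CArG box, the site bound by Srf, was searched by its consensus on both strands. It was in 0 of the 9 member windows and in 1.47% of all windows, while 6 of 15 windows (40%) of the cytoskeletal targets held it. No match says only that these letters are not in this window.

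The other Yap targets did not reach 2-fold in any comparison. Axl (NM_009465), a receptor tyrosine kinase for Gas6, had log2 levels of 4.70 and 5.06 with EGFP, 5.52 and 5.51 with Mkl1 and 4.67 and 4.62 on the arrays labelled Srf. Its levels were 4.81 and 4.81 with shEGFP, 5.39 and 5.32 with shActb_1 and 5.26 and 5.25 with shActb_2. The Mkl1 arrays and the arrays of both hairpins lay above their controls, and the arrays labelled Srf lay below theirs. The changes were 0.63 with Mkl1 (SE 0.11, adjusted p = 0.0064), 0.55 with shActb_1 (SE 0.11, adjusted p = 0.0185) and 0.45 with shActb_2 (SE 0.11, adjusted p = 0.0127), and with the label Srf -0.24 (SE 0.11, adjusted p = 0.145). With quantile normalization the shActb_2 change of Axl was 0.27 (adjusted p = 0.102). The arrays labelled Srf were below the Mkl1 arrays (log2 change -0.87, SE 0.11, adjusted p = 0.000949, limma). Axl and Ccn2 therefore differed between those 2 groups in opposite directions.

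Amotl2 (NM_019764) encodes an angiomotin-like junction protein that binds Yap. It read 1.37 and 1.94 on the EGFP arrays, a gap wider than any change in that experiment, 1.55 and 1.54 with Mkl1 and 1.98 and 2.10 on the arrays labelled Srf. It read 2.16 and 2.12 with shEGFP, 1.98 and 1.93 with shActb_1 and 1.69 and 1.69 with shActb_2. Both hairpins lay below the control, with changes of -0.19 (adjusted p = 0.587) and -0.46 (adjusted p = 0.0515, limma), neither past the threshold. The 2 probes of Lats2, which carry the transcript names NM_015771 and NM_153382, had changes of -0.39 to 0.15 over the 4 comparisons with adjusted p of 0.0681 or more. They disagreed with shActb_1, where the first had a change of 0.01 (95% interval -0.15 to 0.16) and the second one of -0.39 (95% interval -0.64 to -0.14).

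The regulators had small changes. Yap1 (NM_001171147) read 5.10 and 4.97 with EGFP, 5.0 and 4.96 with Mkl1 and 4.97 and 4.93 on the arrays labelled Srf. It read 4.89 and 4.96 with shEGFP, 4.95 and 4.94 with shActb_1 and 5.15 and 5.11 with shActb_2. Its changes were -0.08 (95% interval -0.23 to 0.07) with the label Srf, -0.06 (95% interval -0.20 to 0.09) with Mkl1 and 0.02 (95% interval -0.13 to 0.17) with shActb_1, the last turning to -0.03 with normexp and -0.09 with quantile normalization. With shActb_2 the change was 0.20 (95% interval 0.05 to 0.35, adjusted p = 0.0415, limma), and with quantile normalization it was 0.016 (adjusted p = 0.865). Wwtr1 (NM_133784), which encodes Taz, was higher with Mkl1 by 0.35 (SE 0.08, adjusted p = 0.0222), at 2.97 and 3.10 on the Mkl1 arrays against 2.74 and 2.63 on the EGFP arrays. On the arrays labelled Srf its change was -0.004 (95% interval -0.19 to 0.18) and with the hairpins 0.055 and 0.12. The arrays labelled Srf were below the Mkl1 arrays in Wwtr1 (log2 change -0.35, adjusted p = 0.0166). The 3 Tead1 probes (NM_001166584) had changes of -0.08 to 0.33 over the 4 comparisons, with adjusted p of 0.0749 or more. Their signs differed on the arrays labelled Srf, where the brightest had a change of -0.08 and the others 0.33 and 0.33. RNA levels carry no information on phosphorylation or location of the Yap and Taz proteins.

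**Figure D2:**
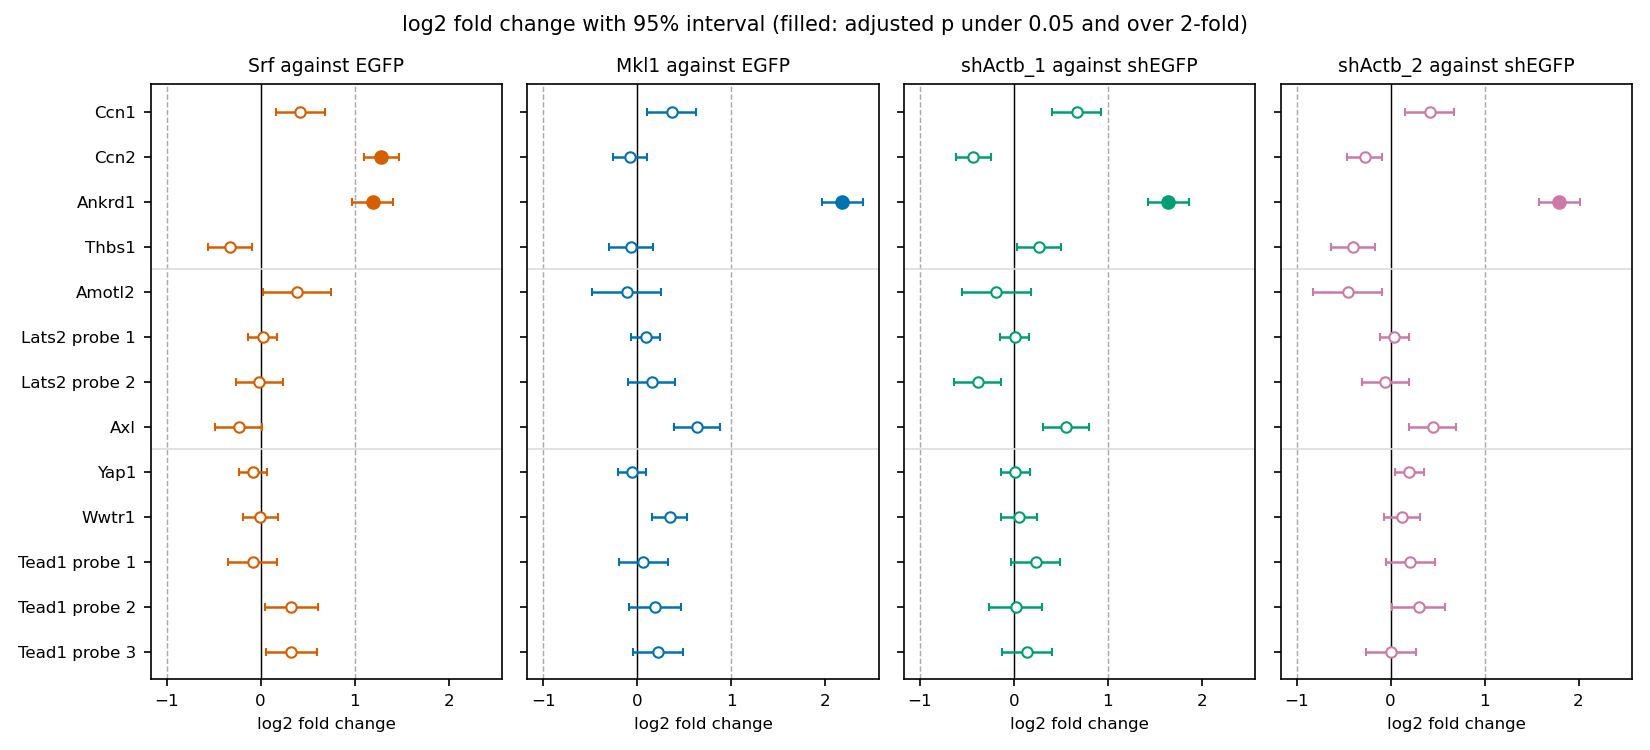
Change of each of the 13 member probes in the 4 comparisons, as log2 fold change on the horizontal axis with 95% intervals from limma; filled points have an adjusted p under 0.05 and a change over 2-fold, and dashed lines mark 2-fold. Ankrd1 is filled in every panel (1.19, 2.18, 1.64 and 1.80), Ccn2 in the Srf panel alone (1.28), and the regulators lie near 0.

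Over all members, 2 of 13 probes were called on the arrays labelled Srf (Ccn2 and Ankrd1), where 5.54% of all probes tested were called, and 1 of 13 (Ankrd1) in each of the other comparisons with a control. The shares of all probes called there were 2.78% with Mkl1, 1.61% with shActb_1 and 6.31% with shActb_2. Single arrays moved these backgrounds: without EGFP replicate 2, 2213 probes in place of 996 were called with Mkl1, and without shActb_2 replicate 1, 3448 in place of 2283 with shActb_2. By adjusted p alone, 3 probes passed with the label Srf (25.5% of all probes did), 3 with Mkl1 (20.8%), 4 with shActb_1 (9.41%) and 6 with shActb_2 (40.3%). Between the arrays labelled Srf and Mkl1, 1 of 13 probes was called (Ccn2, higher). Of 35721 probes tested there, 1787 were called in either direction, and 3.26% of all were called higher. No member was called by limma between the hairpins, where 5.03% of all probes were called and 4 member probes had an unadjusted p under 0.05 (44.0% of all probes did), or between the Mkl1 and shActb_1 changes, where 0.476% were called (184 probes, and 62 to 1007 when an array was left out, the most without EGFP replicate 2) and 4 member probes had an unadjusted p under 0.05 (15.4% of all probes did). With 1 probe per gene, the median change of the 10 members was 0.009 (label Srf), 0.08 (Mkl1), 0.14 (shActb_1) and 0.16 (shActb_2), beside medians of -0.009, 0.02, 0.02 and 0.07 over all named genes tested.

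How alike the 4 shared targets were was also described by the root mean square difference of their changes over the 4 comparisons, among 13927 named genes well above background on all 12 arrays. The comparisons share control arrays, so this is a description of patterns and not a test. Among the closest genes to Ankrd1 were the Wnt ligand gene Wnt7b (0.31) and the cation channel gene Trpv2 (0.36). Trpv2 changed by 1.67 with the label Srf, 1.85 with Mkl1, 1.41 with shActb_1 and 1.46 with shActb_2. Closest to Ccn2 were the globin gene Hba-a1 (0.12), Pm20d1 (0.13) and the fatty acid binding protein gene Fabp4 (0.13). Closest to Ccn1 were Slc25a33 (0.06), Cntf (0.09) and Eml5 (0.09), and closest to Thbs1 were H2-K1 (0.03), Tra2b (0.05) and Lims1 (0.06). None of the shared targets was among the 3 closest genes of another. From Ankrd1, 4.86% of the other genes were closer than Ccn1, 69.5% were closer than Ccn2 and 72.1% were closer than Thbs1. From Ccn2, 61.5% were closer than Ccn1, 75.3% than Thbs1 and 99.6% than Ankrd1. From Ccn1, 66.9% were closer than Thbs1, 84.4% than Ccn2 and 97.8% than Ankrd1. From Thbs1, 83.2% were closer than Ccn1, 93.7% than Ccn2 and 99.6% than Ankrd1. Ankrd1 was thus the farthest shared target from each of the other 3.

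Further reported Yap targets, a list of 16 genes, had 6 that rose and 1 that fell on the arrays labelled Srf, with a median change of 0.67. Of all named genes, 4.40% rose and 2.61% fell in that comparison. The 4 largest were Fjx1, a secreted homologue of Drosophila four-jointed (3.22-fold, log2 change 1.69, adjusted p = 0.00088), Nt5e, the ectonucleotidase CD73 (2.85-fold, log2 change 1.51, adjusted p = 5.46e-05), Ccdc80, a matrix protein gene (2.26-fold, log2 change 1.18, adjusted p = 0.00531), and Igfbp3, an IGF binding protein gene (2.22-fold, log2 change 1.15, adjusted p = 0.000106, limma). Nuak2 (1.0), a kinase gene, and Tgfb2 (1.12) also rose, and Rbms3 fell by 1.02. The changes of Nuak2 and Rbms3 were close to the 2-fold limit. Levels of Nt5e were -1.62 and -1.86 with EGFP and -0.20 and -0.26 on the arrays labelled Srf, and those of Fjx1 were -1.02 and -0.31 against 0.95 and 1.09. With Mkl1 none of the 16 rose and 1 fell, Tgfb2, at a list median of 0.03 (1.88% of all named genes rose and 1.97% fell). With shActb_1 none rose and 1 fell, Ccdc80, at a list median of -0.07 (0.744% rose and 1.65% fell). With shActb_2, Foxf2 and Fjx1 rose and none fell, at a list median of 0.04 (2.40% rose and 3.36% fell). The Fjx1 change there was 1.01, and 0.993 without shActb_2 replicate 2. By adjusted p alone, 12 of the 16 passed with the label Srf (33.9% of all named genes did), 11 with Mkl1 (29.0%), 5 with shActb_1 (14.0%) and 11 with shActb_2 (44.5%), with changes of both signs in every comparison. A difference between comparisons was not tested for the list as a whole. The list was written from general knowledge of Yap targets in other cell types, and genes that are also targets of Srf or of TGF-β were not removed. With the normexp background correction 3 of the 16 were called with the label Srf and none with either hairpin. Ccdc80 (0.935) and Igfbp3 (0.944) were then under 2-fold with the label Srf. Without shEGFP replicate 1 or either shActb_1 array, the adjusted p of Ccdc80 with shActb_1 was 0.104, 0.0932 and 0.0791 in place of 0.0148.

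Tgfb2, the gene of a TGF-β ligand, moved in opposite directions in the overexpression experiment. It read 1.66 and 1.41 with EGFP, 0.52 and 0.33 with Mkl1 and 2.67 and 2.65 on the arrays labelled Srf. All arrays labelled Srf lay above the controls and all Mkl1 arrays below. It rose 2.18-fold with the label Srf (log2 change 1.12, adjusted p = 0.000268), fell by 1.11 on the log2 scale with Mkl1 (SE 0.10, adjusted p = 0.000683), and differed between those groups by 2.23 (SE 0.10, adjusted p = 1.17e-05, limma). Without 1 EGFP array (replicate 1) the change with Mkl1 was -0.98 and under 2-fold. A second Tgfb2 probe had changes of 0.87 with the label Srf and -1.44 with Mkl1. With the hairpins the first probe had changes of -0.91 (adjusted p = 0.00212) and -0.56 (adjusted p = 0.00422). The second probe fell by 1.06 with shActb_1 (adjusted p = 0.00576) and had a change of -0.84 with shActb_2 (adjusted p = 0.00408, limma). Igfbp3 and Ccdc80, which rose with the label Srf, had changes of -0.70 (adjusted p = 0.00179) and -0.84 (adjusted p = 0.0272) with Mkl1, and the arrays labelled Srf exceeded the Mkl1 arrays by 1.85 (adjusted p = 1.15e-05) and 2.01 (adjusted p = 0.000417).

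**Figure D3:**
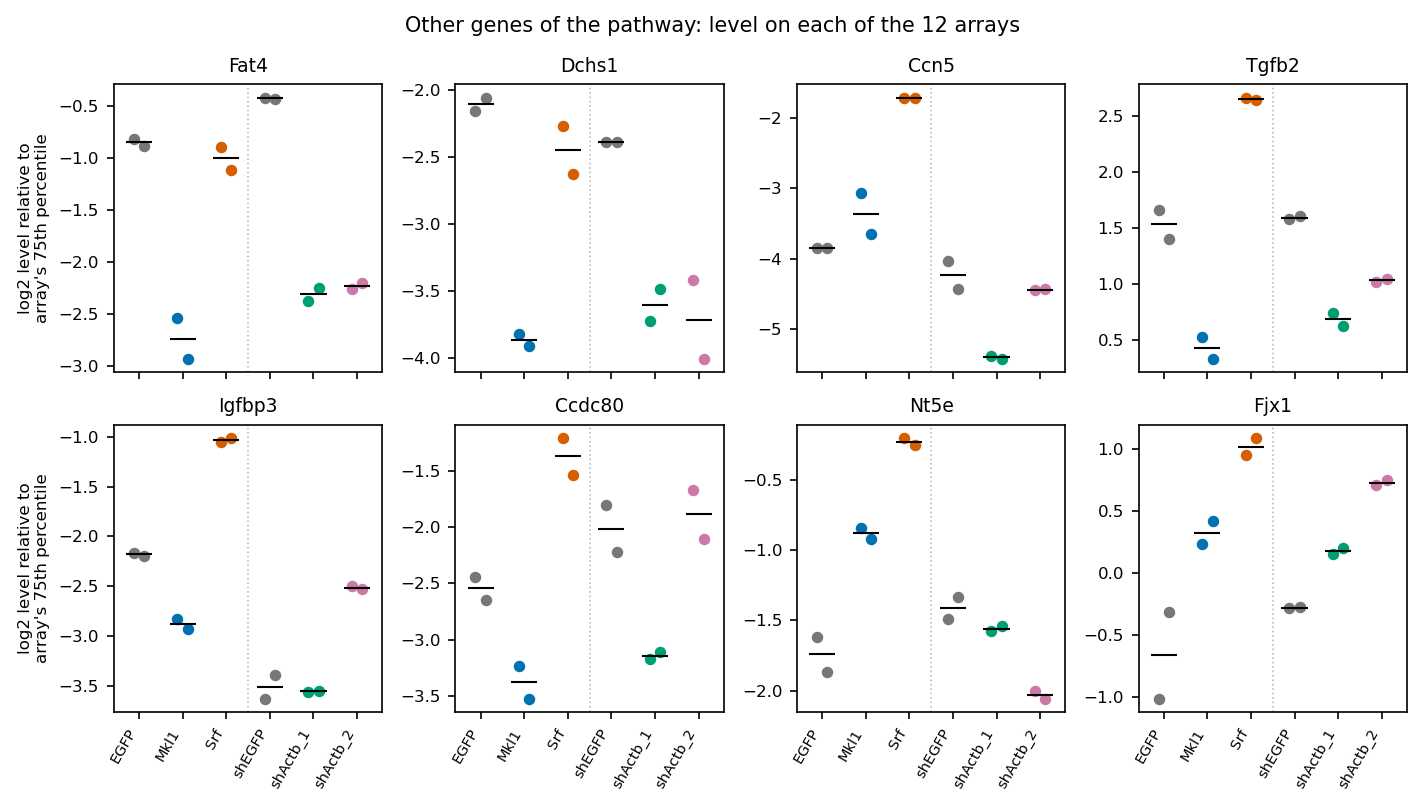
Level of 8 further genes of the pathway on each array, as log2 signal relative to the array's 75th percentile, for the 6 groups; points are arrays and bars are group means. Fat4 and Dchs1 lie below their controls with Mkl1 and both Actb hairpins and near the control on the arrays labelled Srf. Tgfb2, Igfbp3 and Ccdc80 lie above EGFP on the arrays labelled Srf and below EGFP on the Mkl1 arrays.

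A further 21 genes of the Hippo pathway were listed, among them cell-surface and scaffold genes, the kinase genes Stk3 and Stk4, cofactors of the Lats kinases and the Tead cofactors Vgll3 and Vgll4. On the arrays labelled Srf none of 20 tested was called by limma, and 8 had an unadjusted p under 0.05, as did 47.3% of all named genes. With Mkl1 and with shActb_1, 2 genes fell and none rose, and with shActb_2, 2 fell and 1 rose. Of all named genes 1.97%, 1.65% and 3.36% fell and 1.88%, 0.744% and 2.40% rose in those comparisons. The 2 that fell were Fat4 and Dchs1 in each of those comparisons. They encode giant protocadherins that bind each other across cell contacts and act upstream of Yap in mammalian neural progenitors. Fat4 read -0.81 and -0.88 with EGFP, -2.54 and -2.93 with Mkl1 and -0.89 and -1.11 on the arrays labelled Srf. It read -0.41 and -0.43 with shEGFP, -2.37 and -2.25 with shActb_1 and -2.26 and -2.20 with shActb_2. The Mkl1 and hairpin arrays lay far below their controls, and the arrays labelled Srf did not. Fat4 was 3.71-fold lower with Mkl1 (log2 change -1.89, adjusted p = 0.000245), 3.70-fold lower with shActb_1 (log2 change -1.89, adjusted p = 0.000302) and 3.5-fold lower with shActb_2 (log2 change -1.81, adjusted p = 0.00014, limma). On the arrays labelled Srf the change was -0.15 (adjusted p = 0.426), and those arrays exceeded the Mkl1 arrays by 1.74 (SE 0.13, adjusted p = 0.000105).

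Dchs1 read -2.16 and -2.06 with EGFP, -3.82 and -3.92 with Mkl1 and -2.27 and -2.63 on the arrays labelled Srf. It read -2.39 and -2.39 with shEGFP, -3.73 and -3.49 with shActb_1 and -3.42 and -4.01 with shActb_2. As for Fat4, the arrays of Mkl1 and of both hairpins were low with no overlap. Its changes were -1.76 (adjusted p = 0.00141), -1.22 (adjusted p = 0.00934) and -1.32 (adjusted p = 0.00187), and -0.34 (adjusted p = 0.242) on the arrays labelled Srf, which exceeded the Mkl1 arrays by 1.42 (SE 0.20, adjusted p = 0.00173, limma). With the normexp background correction the fall of Dchs1 was under 2-fold in all 3 comparisons (-0.90, -0.75 and -0.87), and its excess on the arrays labelled Srf over the Mkl1 arrays was 0.74. With shActb_1 its adjusted p exceeded 0.05 without either shEGFP array (0.0662 and 0.055) or without shActb_1 replicate 1 (0.0734). The third gene called with shActb_2 was Mob1a, a cofactor of the Lats kinases, which read -1.90 and -0.54 on the shActb_2 arrays against -2.39 and -2.25 with shEGFP. Without the higher of these arrays (replicate 2) its change was 0.43 (adjusted p = 0.0573) in place of 1.11 (adjusted p = 0.0431), and without the lower it was 1.79. The call of Mob1a was also lost with normexp (0.85), without the filter on dim probes (adjusted p = 0.0772), with the arrays of the experiment only (0.119), with the replicate block (0.0503) and without either shEGFP array (0.166 and 0.113). Some mesenchymal and neuronal markers fell in the same 3 comparisons (Mkl1, shActb_1 and shActb_2) as Fat4 and Dchs1. The mesenchymal marker Pdgfrb fell by 1.69, 1.87 and 1.75 on the log2 scale and the neuronal marker Map2 by 1.49, 1.27 and 1.14. All 6 mesenchymal markers tested were lower in each of these comparisons. The neuron markers were not alike: with Mkl1 all 4 tested were lower, with shActb_1 3 of 5 were higher at a median of 0.11, and with shActb_2 2 were higher and 3 lower. Their summed linear level was 2.76 to 3.13 with EGFP, 1.31 to 1.36 with Mkl1 and 2.78 to 2.99 with the label Srf, and 2.72 to 2.83 with shEGFP, 1.99 to 1.99 with shActb_1 and 1.72 to 2.13 with shActb_2. Of 9 neural progenitor markers tested, 5 were higher and 4 lower in each of the 3 comparisons. Among them Slc1a3 fell by 1.37, 1.30 and 1.11. With shActb_1, Fabp7 (-1.27) and Sox2 (-1.01) fell as well and none rose, with Mkl1 Sox9 (1.035) and Nes (1.16) rose, and with shActb_2 Sox9 (1.02) rose. Of 5 macrophage markers 4 were lower with shActb_2, where Adgre1 (-1.05) and Ptprc (-1.01) fell, and with shActb_1 none was called by limma and 1 had an unadjusted p under 0.05. The part of these markers in the falls of Fat4 and Dchs1 was not tested.

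Among 17 paralogs of the members, 15 were tested. With the label Srf 1 rose and 1 fell (4.40% of all named genes rose and 2.61% fell), and with shActb_1 none rose and 1 fell (0.744% and 1.65%). Ccn5, a matricellular gene of the Ccn family, rose 4.42-fold on the arrays labelled Srf (log2 change 2.14, SE 0.19, adjusted p = 0.000252). Its level there was -1.70 and -1.70 against -3.84 and -3.85 with EGFP, so that Ccn2 and Ccn5 were both high on those arrays. With normexp the change was 1.38, and the excess over the Mkl1 arrays 1.08. With Mkl1 the Ccn5 change was 0.49 (adjusted p = 0.113), and the arrays labelled Srf exceeded the Mkl1 arrays by 1.66 (adjusted p = 0.000735, limma). With shActb_1 it fell by 1.17 on the log2 scale (adjusted p = 0.0095), from -4.04 and -4.44 to -5.39 and -5.43, and 1 of the 2 shActb_1 arrays was well above background there. The change was -0.36 with the normexp background correction and -0.95 with quantile normalization, and its adjusted p exceeded 0.05 without shEGFP replicate 1 (0.0699) or without either shActb_1 array (0.0607 and 0.0662). Tead2, the Tead factor known for its expression in early neural progenitors, fell by 1.22 (log2) on the arrays labelled Srf (SE 0.08, adjusted p = 8.72e-05), at 4.97 and 4.93 against 6.24 and 6.11 with EGFP, and its second probe had a change of -1.11. With Mkl1 and shActb_2 no paralog was called by limma, while 11 and 8 had an unadjusted p under 0.05, as did 44.6% and 53.3% of all named genes.

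**Figure D4:**
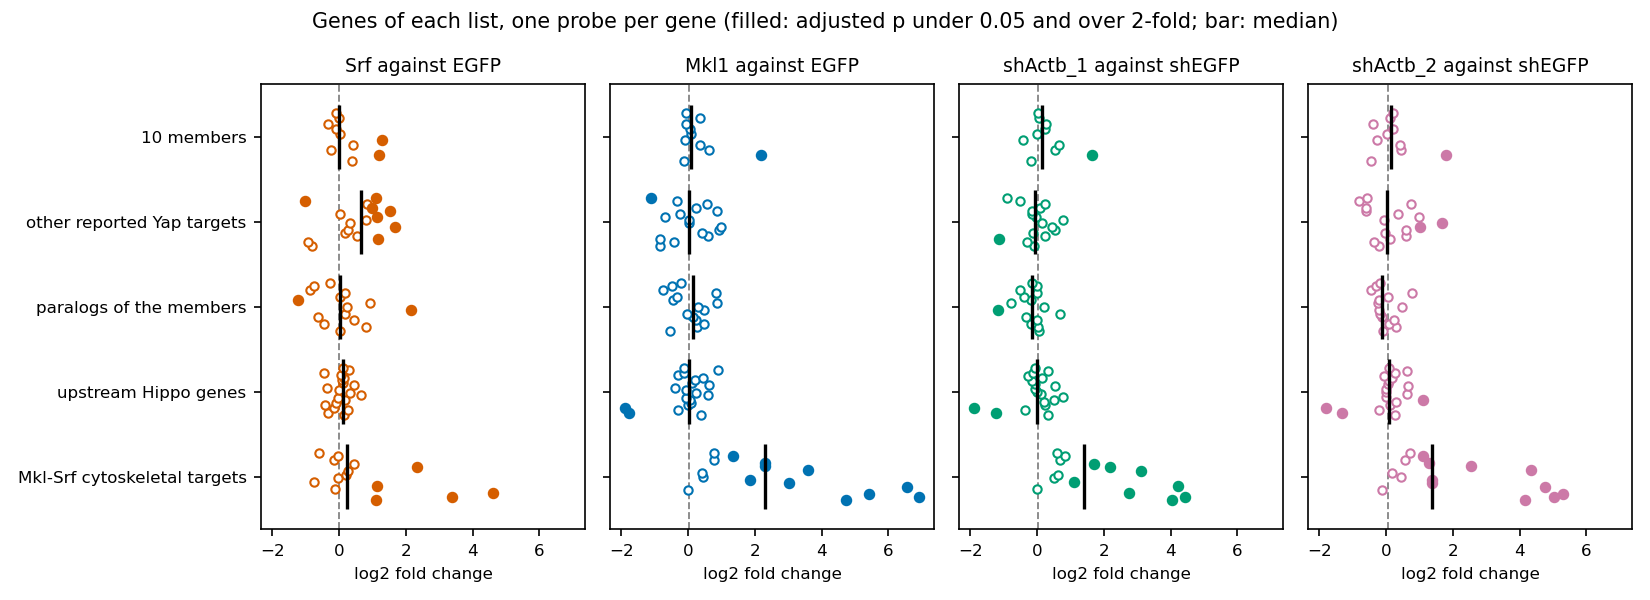
Change of every tested gene of 5 lists in the 4 comparisons, as log2 fold change on the horizontal axis with 1 probe per gene. Filled points have an adjusted p under 0.05 and a change over 2-fold, black bars are list medians and the dashed line is the median of all named genes. Members spread around 0 apart from Ankrd1 and, in the Srf panel, Ccn2, other reported Yap targets have a median of 0.67 in the Srf panel and of -0.07 to 0.04 in the others, with points on both sides of 0, and the cytoskeletal Mkl-Srf targets are shifted with Mkl1 and both hairpins, where Fhl1 is drawn in the panels that tested it.

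For scale, the same tests were read over 15 cytoskeletal and contractile genes that are targets of Mkl and Srf, such as smooth muscle actin and transgelin genes. The gene Fhl1, called with Mkl1 and shActb_2, was well above background on 6 arrays only and was left out of these counts, so that the same 14 genes stand in every comparison. With Mkl1, 9 of 14 rose and none fell, with a median change of 2.09. With shActb_1, 8 of 14 rose (median 1.41), and with shActb_2, 9 of 14 (median 1.34). On the arrays labelled Srf, 5 of 14 rose (median 0.24), among them Actg2, Acta2 and Tagln as given above. Of all named genes 1.88% rose with Mkl1, 0.744% with shActb_1, 2.40% with shActb_2 and 4.40% with the label Srf. The order of the comparisons was thus not that of the other reported Yap targets, whose median was 0.67 with the label Srf and between -0.07 and 0.04 in the others. Among the 10 members, Ankrd1 had its largest change with Mkl1, as the cytoskeletal list had its largest median. Ccn2 had its largest change with the label Srf, as the list of other reported Yap targets had its largest median. Other members did not divide in this way. The Yap target Axl had its largest change with Mkl1 (0.635) and a change of -0.235 with the label Srf. Ccn1 had its largest change with shActb_1 (0.668). Whether a member follows either list was not tested.

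Markers listed for macrophages, embryonic stem cells, mesenchyme and neurons also moved in some of these groups. The summed linear level of 5 macrophage markers was 2.49 to 2.93 on the EGFP arrays, 3.63 to 3.65 with Mkl1 and 5.58 to 6.19 with the label Srf. Its members did not move together: with the label Srf, Cd68 (1.12) and the brightest of 3 Csf1r probes (1.44, the others 1.14 and 0.046) rose, Aif1 fell by 1.29, and the list median was -0.22. With Mkl1, 4 of 5 were lower, at a list median of -0.31, and Aif1 fell by 1.51. For 5 embryonic stem cell markers the sum was 0.992 to 1.14, 0.766 to 0.805 and 2.91 to 3.36. The last rested on Esrrb, which rose by 2.53, while 3 of 5 were lower and the list median was -0.13. The summed level of 7 mesenchymal markers was 181 to 183 with EGFP, 107 to 127 with Mkl1 and 101 to 105 with the label Srf, and 144 to 153 with shEGFP, 111 to 122 with shActb_1 and 87.7 to 91.2 with shActb_2. With the label Srf the members went both ways, as 4 of 7 were lower, Col1a2 fell by 1.096 (log2), the list median was -0.47, and Lum rose, well above background on both arrays labelled Srf and on neither EGFP array. The neuron marker Tubb3 rose 2.9-fold with the label Srf (log2 change 1.53, adjusted p = 9.26e-05, limma) while Map2 had a change of -0.87 (adjusted p = 0.00059), and the progenitor marker Sox2 fell by 1.05 (adjusted p = 0.00186). The defining endothelial markers Cdh5, Tie1 and Emcn were not well above background in any group. The part of these markers in the changes of Ccn2, Ccn5, Igfbp3 and Tgfb2 on the arrays labelled Srf was not tested. In RNA from whole cultures, a change in the number of cells of a type and a change in RNA per cell cannot be told apart.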

How the data were processed

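RNA of NPCs, with 2 arrays for each of 6 groups named by their titles, was hybridized in 1 colour to Agilent mouse arrays. The authors deposited Feature Extraction 11.5.1.1 files, in which each spot has a background-subtracted processed signal intensity, and a table of log2 values. The deposited log2 values equal log2 of the processed signal shifted by a constant in each array, within 0.01 for 100% of probes. From the intensities, flagged and control spots were left out, spots of a probe were averaged, and log2 values were set relative to the array's 75th percentile. Accessions were matched without versions to RefSeq (GRCm38.p6), which named 28026 of 55681 probes. Promoter windows came from the same release.

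All 12 arrays entered 1 fit (limma 3.58.1 in R 4.3.3, lmFit and eBayes, two-sided) with 1 mean per group, tested on simulated data. Probes entered a comparison when well above background on both arrays of a group compared. Calls needed an adjusted p (Benjamini-Hochberg) under 0.05 together with a change over 2-fold. For genes with several probes outside the members, the brightest stood for the gene. Members, lists and tests were chosen with earlier results of these data known. Named genes were all members, up to 4 called genes per list and comparison with the largest change, and the 3 genes closest to each shared target, of which 1 is not reported here. Nuak2, Rbms3 and the genes named from the cytoskeletal and marker lists were named after their values were seen. Alternatives covered background correction, normalization, the deposited table, filters on dim probes, the arrays fitted, the replicate number as a block, the variance model, the fold limit and each array left out; for genes outside the members they were added after seeing the data.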

Additional observations from a re-analysis of the deposited data

Results flagged for a closer look

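These changes differed between groups by a direct test (limma, adjusted p under 0.05 and over 2-fold), and their causes were not tested. The arrays labelled Srf exceeded the Mkl1 arrays in Ccn2 by 1.36 on the log2 scale, in Ccn5 by 1.66, in Fat4 by 1.74, in Dchs1 by 1.42, in Igfbp3 by 1.85, in Ccdc80 by 2.01 and in Tgfb2 by 2.23. For Fat4 and Dchs1 this came from low levels with Mkl1 (log2 changes -1.89 and -1.76 from EGFP), and for Ccn2 and Ccn5 from high levels with the label Srf (1.28 and 2.14). The shActb_2 arrays exceeded the shActb_1 arrays in Igfbp3 by 1.04, in Foxf2 by 1.52 and in Ccdc80 by 1.26, and here the hairpin and the slide cannot be told apart. With normexp these 3 were under 2-fold (0.760, 0.945 and 0.937), as was Dchs1 between the label Srf and Mkl1 (0.738). The Mkl1 change exceeded the shActb_1 change in Ccn5 by 1.66 (adjusted p = 0.0455) and in Nt5e by 1.01 (adjusted p = 0.0254). Those last 2 differences lost the call under most alternatives. They did so with a replicate block (adjusted p = 0.084 and 0.0539), without any filter on dim probes (0.105 and 0.0696) and with normexp (changes of 0.653 and 0.793), and Nt5e also with quantile normalization (0.991). With an array left out, the call was lost in 6 of 8 fits for Ccn5 and in 7 of 8 for Nt5e.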

How the results depend on the processing

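Among the log2 changes of the 13 member probes, the called values kept direction and threshold under every alternative run: 1087 of 1131 recomputed values had the same direction and side of the threshold, 2 passed it anew (Ankrd1 between the label Srf and Mkl1, without Mkl1 replicate 1, -1.008, or Srf replicate 2, -1.024) and 42 uncalled values near 0 turned sign. With normexp these were Lats2 probe 2 (0.001) and Wwtr1 (0.026) with the label Srf, Yap1 with shActb_1 (-0.029) and Tead1 probe 1 between the hairpins (0.025). With quantile normalization they were Tead1 probe 1 with Mkl1 (-0.018), Lats2 probe 1 (-0.019), Yap1 (-0.092) and Wwtr1 (-0.013) with shActb_1, Lats2 probe 1 (-0.021), Lats2 probe 2 (0.093) and Wwtr1 (-0.005) with shActb_2, Yap1 (0.097) and Tead1 probe 3 (-0.033) between the label Srf and Mkl1, and Lats2 probe 1 between the hairpins (-0.001). Others turned when an array was left out. With the label Srf the range was Lats2 probe 1 -0.004 to 0.048, Lats2 probe 2 -0.104 to 0.076, Wwtr1 -0.063 to 0.054 and Tead1 probe 1 -0.255 to 0.085. With Mkl1 the range was Thbs1 -0.189 to 0.057, Amotl2 -0.393 to 0.172, Yap1 -0.122 to 0.010 and Tead1 probe 1 -0.107 to 0.233. With shActb_1 the range was Lats2 probe 1 -0.053 to 0.071, Yap1 -0.021 to 0.052, Wwtr1 -0.025 to 0.134 and Tead1 probe 2 -0.138 to 0.175. With shActb_2 the range was Lats2 probe 1 -0.022 to 0.102 and Tead1 probe 3 -0.010 to 0.014. Between the label Srf and Mkl1 the range was Tead1 probe 3 -0.057 to 0.274. Between the hairpins the range was Lats2 probe 1 -0.004 to 0.066 and Tead1 probe 1 -0.087 to 0.045. For the Mkl1 change minus the shActb_1 change the range was Amotl2 -0.205 to 0.360, Axl -0.094 to 0.262, Tead1 probe 1 -0.340 to 0.000 and Tead1 probe 3 -0.088 to 0.242. The cause was not tested. Without the fold limit, more member probes were called by construction: 3 with Mkl1, 4 with shActb_1, 6 with shActb_2, 4 between the label Srf and Mkl1 and 1 between the hairpins. Leaving out an array gave 1 to 2 called member probes between the label Srf and Mkl1.

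The replicate numbers in the titles did not pair the arrays (correlation of their deviations 0.00 to 0.26 within an experiment). With the replicate block 2 member probes were called with the label Srf, 1 in each other comparison with a control, 1 between the label Srf and Mkl1 and none in the rest, as without it. A slide block was not run, because comparisons within a slide are unchanged by it and shActb_2 has no control on its slide.

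Over all probes, normexp lowered the number called from 1970 to 843 with the label Srf, from 996 to 367 with Mkl1, from 583 to 250 with shActb_1 and from 2283 to 677 with shActb_2. Without EGFP replicate 2, 2213 were called with Mkl1 (31.2% higher in place of 46.4%) and 43.5% of calls with the label Srf were higher in place of 59.4%. Without shActb_2 replicate 1, 3448 were called with shActb_2, and without replicate 2, 50% of calls there were higher in place of 27.5%. The share of calls that were higher moved from 46.4% to 64.1% with Mkl1 and from 27.5% to 45.8% with shActb_2 under quantile normalization, and from 30.2% to 40.4% with shActb_1 and to 42.4% with shActb_2 under normexp. Of 350 recomputed changes of named pathway genes outside the members, 52 lost the call and none turned sign. Leaving out an array gave 2 to 4 called paralogs with the label Srf and 0 to 3 called reported Yap targets with Mkl1, with the highest counts without EGFP replicate 2.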

Other observations

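Fjx1 and Nt5e had the largest increases of the 16 other reported Yap targets on the arrays labelled Srf, and their values differed elsewhere. Fjx1 read 0.23 and 0.42 with Mkl1 against -1.02 and -0.31 with EGFP (log2 change 0.99, adjusted p = 0.0126, limma), and 0.71 and 0.75 with shActb_2 against -0.29 and -0.27 with shEGFP (log2 change 1.01, adjusted p = 0.00583), so it was higher than its control in both experiments. Nt5e read -0.84 and -0.92 with Mkl1 against -1.62 and -1.86 with EGFP (log2 change 0.86, adjusted p = 0.00131), and -2.0 and -2.06 with shActb_2 against -1.49 and -1.34 with shEGFP (log2 change -0.62, adjusted p = 0.00213), so its levels with Mkl1 and with that hairpin lay on opposite sides of their controls. Foxf2, a forkhead factor gene, read -1.96 and -1.99 with shActb_2, above every other array (-3.89 to -2.90).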
